A study of Homo sapiens with 135 samples.

Results

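The regions bound by TET3 on day 4 of neural induction were compared between H9 cells given BPK25 and H9 cells given its vehicle, DMSO. Every distinct interval of the 2 TET3 peak lists counted as 1 region, and a region belonged to both treatments when it overlapped an interval of the other list by at least 1 bp. This gave 45878 regions, 33121 in DMSO and 12757 in BPK25, out of 833373 in the 36 peak lists of the series. DMSO regions found again in BPK25 are called kept and the others lost. BPK25 regions found in DMSO are called shared and the others gained.

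H9 is an established human embryonic stem cell line, and the series uses this 1 line, so nothing here shows how other lines behave. Cells were placed in a commercial neural induction medium supplemented with SMADi, which drives pluripotent cells towards neural progenitors. The treated cells received BPK25 at 20 µM, renewed with the daily change of medium, and the control cells received DMSO. Each group had 3 replicates, not stated to be separate cultures, and the submitters called each list on these 3 together. The lists therefore hold no spread between replicates and allow no test between treatments. Intervals given with shares are 95% intervals that cover counting error only, over regions that are not independent replicates. The other day 4 lists, of CTCF, MBD3, TET1 and TET2 in both treatments and of CTCF and MBD3 in untreated (WT) cells, served as readouts that the definition of the regions did not use. Antibodies are named in the labels for CTCF, MBD3 and TET1, and none is named for TET3 or TET2.

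TET3 is 1 of the 3 TET dioxygenases, which oxidise 5-methylcytosine to 5-hydroxymethylcytosine and further products and so open a path to DNA demethylation. It is the TET enzyme of the oocyte and zygote and is also known for roles in neural progenitors, while TET1 is the prominent family member in pluripotent cells. MBD3 is a subunit of NuRD, a complex that joins nucleosome remodelling with histone deacetylation. CTCF is the zinc finger protein at which cohesin stops to form chromatin loops. BPK25 is a small molecule known for causing loss of NuRD proteins from cells.

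Most TET3 regions of the control cells were not called in BPK25 cells. Of the 33121 DMSO regions, 6232 were kept, or 18.8% (18.4 to 19.2), and 26889 were lost, or 81.2%. When the DMSO regions were moved by 10 kb, 0.806% of them met a BPK25 region. The BPK25 list was shorter by 1.38 on the log2 scale. It was not a subset of the DMSO list, because 6277 of its regions were shared, or 49.2% (48.3 to 50.1), and 6480 were gained, or 50.8%. The TET3 losses stood between those of the other antibodies on the same day, where 61.6% of CTCF, 67.2% of TET1, 88.3% of MBD3 and 94.8% of TET2 regions of DMSO cells had no BPK25 region. The corresponding gained shares were 46% for CTCF, 65.3% for MBD3, 82.3% for TET1 and 85.7% for TET2. From DMSO to BPK25 the lists went from 20675 to 14500 regions for CTCF and from 45019 to 84203 for TET1. They went from 46132 to 15456 for MBD3 and from 36633 to 13324 for TET2. A shorter list leaves fewer regions to meet, and this order of antibodies was not examined with lists of equal length.

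The kept share depended on how the lists were cut. With both lists limited to a −log10 q of at least 5 it was 7.31%, and with the 12757 strongest regions of each list it was 28.7%. Requiring reciprocal overlap of at least 50% gave 10.6%. In each of these settings fewer than 1 DMSO region in 3 was kept.

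The local background of the lists also differed between treatments. The fragment pileup at a summit and the background it was set against were solved from the deposited fold enrichment and p-value of each region. The lowest background of a list, which follows its depth and fragment length together, was 1.61 fragments in DMSO and 2.04 in BPK25. The median background was 1.71 fragments in DMSO, 1.07 times the lowest, and 3.05 in BPK25, 1.50 times the lowest. In DMSO 39.7% of regions sat at the lowest background, against 15.2% in BPK25. The same direction held for the other 4 antibodies on day 4, where the median stood at 1.09 to 1.23 times the lowest in DMSO lists and 1.77 to 2.51 times in BPK25 lists. Lists without BPK25 could also be high, with 1.49 for CTCF and 1.20 for MBD3 in WT cells on day 4. For TET3 the values were 2.03 in DMSO and 2.14 in BPK25 on day 0, and 1.19 and 1.83 on day 9. The part of this background in the number of TET3 regions lost was not tested.

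Stronger regions were kept more often. When the DMSO list was cut into 10 equal bins by −log10 q, the kept share went from 7.30% in the weakest bin (median fold enrichment 3.18) to 42.7% in the strongest (6.26), and it was higher in each bin than in the one below. Of the 100 strongest DMSO regions 77 were kept, and of the 1000 strongest 541. In the BPK25 list the shared share went from 36.8% in the weakest bin to 71.8% in the strongest, with a drop at bins 3, 5 and 7. Of the 100 strongest BPK25 regions 86 were shared with DMSO, so 14 had no DMSO counterpart.

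**Figure D1:**
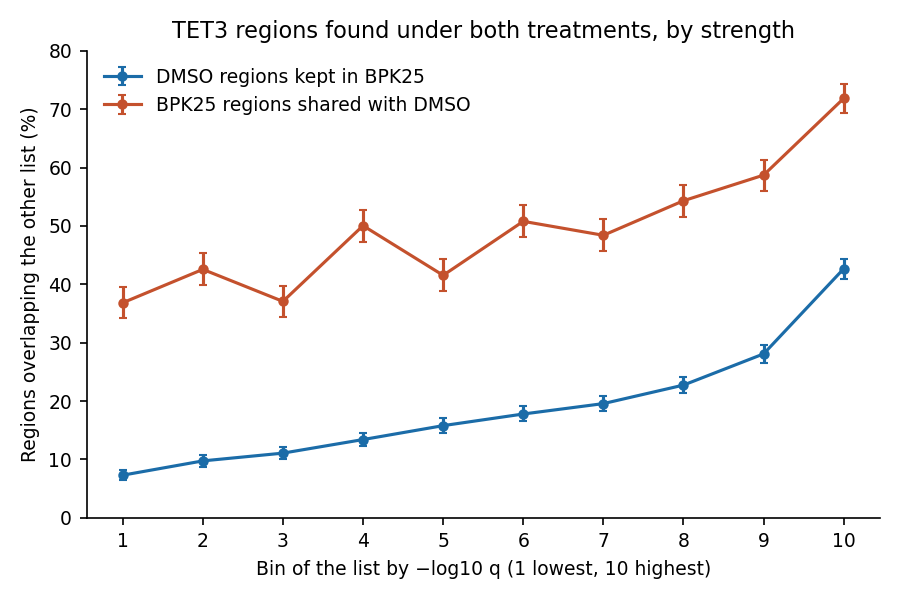
Share of TET3 regions that overlap the list of the other treatment (y axis, %) in 10 equal bins of each list by −log10 q (x axis, weakest to strongest), with DMSO regions in blue, BPK25 regions in orange and bars for Wilson 95% intervals. The DMSO curve climbs from 7.30% to 42.7% and the BPK25 curve from 36.8% to 71.8%.

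Kept and lost regions differed in width more than in fold enrichment. Kept regions had a median width of 347 bp (quartiles 237 and 517), lost regions 243 bp (191 and 341), shared regions 273 bp (210 and 377) and gained regions 220 bp (187 and 283). A single summit was reported in 80.7% of kept, 94.7% of lost, 89.2% of shared and 97.6% of gained regions. The authors' fold enrichment had a median of 4.60 in kept and 4.16 in lost regions, within the DMSO list, and of 3.59 in shared and 3.62 in gained regions, within the BPK25 list. Gained regions thus had about the same fold enrichment as shared ones, with a lower pileup (median 13 against 16 fragments) over a lower background (2.62 against 3.64). A wide region meets another interval more easily than a narrow one, so part of the width difference follows from the definition. The kept share went from 9.41% in the narrowest of 4 equal width bins of DMSO regions to 34.3% in the widest.

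Where a region was present in both treatments, its 2 summits often lay apart. How far summits of 1 site differ between replicates is not known from pooled lists, so a shift in binding is not shown. The overlaps formed 6371 pairs, of which 5921 joined 1 DMSO region with 1 BPK25 region. In those the summits lay a median of 79 bp apart (quartiles 31 and 175), and 57.7% lay within 100 bp. The DMSO region was the wider of the pair in 64.2%. Among these 5921 pairs the order of enrichment was hardly carried over, with a Spearman correlation of 0.058 between the fold enrichments. It is given as a description, since the pairs share 2 pools of libraries and 2 sets of inputs. Only regions called in both lists enter it, so it does not describe the lists as wholes. Their fold enrichments covered a narrow range, with quartiles of 4.02 and 5.56 in kept and 3.13 and 4.18 in shared regions.

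Regions kept by TET3 were, already in control cells, places where other proteins were called. In DMSO, MBD3 had a peak at 70.1% of kept and 39.4% of lost TET3 regions, a difference of 30.6 percentage points (29.3 to 31.9). TET2 was called at 70.0% against 39.4% (difference 30.6 points, 29.3 to 31.8) and TET1 at 70.9% against 42.2% (28.7 points, 27.5 to 30.0). CTCF was the least frequent and differed most as a ratio, with 33.0% against 12.3% (20.7 points, 19.5 to 21.9). The same regions moved by 10 kb met these lists at 1.35% to 4.14%. The likeness of MBD3, TET2 and TET1 depended on the length of their lists. With each list cut to its 10000 strongest regions, the differences were 12.7 points for MBD3 (22.6% against 9.90%), 23.4 for TET2, 20.3 for TET1 and 7.25 for CTCF.

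These differences were not confined to strong or wide regions. Within each of the 10 bins of −log10 q, each of the 4 antibodies was more frequent at kept than at lost regions, by 9.50 to 23 points for CTCF, 16.7 to 31.2 for MBD3, 15.9 to 27.4 for TET1 and 18.2 to 27.2 for TET2. They were also present in each width bin. In the narrowest, of 161 to 196 bp, CTCF was at 14.8% of kept and 6.04% of lost regions, and MBD3 at 49.8% and 25.2%. WT cells, which received neither DMSO nor BPK25, gave the same order, with CTCF at 36.2% of kept and 11.3% of lost regions and MBD3 at 76.0% and 42.2%. Whether the lists share an input control is not given in the sources used here, and its part in these overlaps was not tested.

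**Figure D2:**
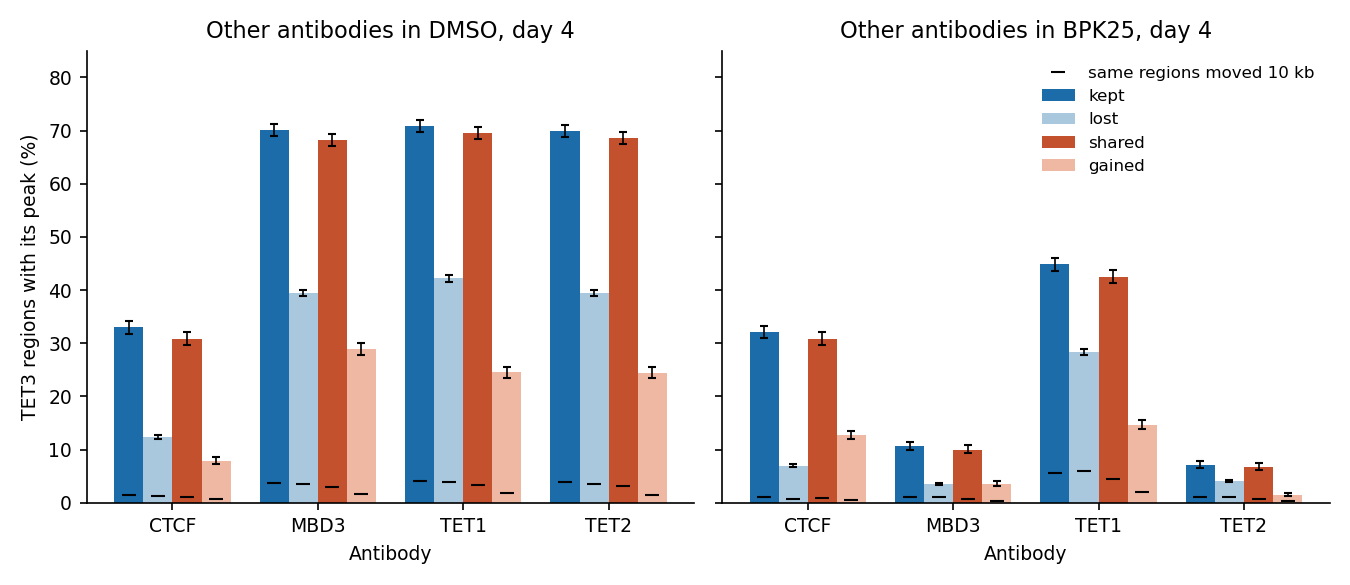
Share of TET3 regions (y axis, %) with a day 4 peak of CTCF, MBD3, TET1 or TET2 in DMSO lists (left) and BPK25 lists (right), for kept and lost DMSO regions and shared and gained BPK25 regions, with Wilson 95% intervals and black dashes for the same regions moved by 10 kb. CTCF stands at 33.0% of kept regions in DMSO and 32.1% in BPK25, while MBD3 goes from 70.1% to 10.6% and TET2 from 70.0% to 7.20%.

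The share of TET3 regions called again rose with the number of other proteins called there. With no other antibody in DMSO 5.72% of TET3 regions were kept (5.27 to 6.20), with 1 it was 12.0%, with 2 it was 20.5%, with 3 it was 31.7% and with all 4 it was 49.9% (48.0 to 51.7). Lost regions included 9036 with none of the 4 antibodies, 33.6% of them, against 8.79% of kept regions. Regions with all 4 made up 23% of kept and 5.35% of lost regions. The difference between all 4 and none, 44.2 percentage points, was 14.9 with a −log10 q of at least 5 in both TET3 lists (16.3% against 1.41%). It was 12.0 with a fold enrichment of at least 4 (15.3% against 3.32%) and 22.9 with reciprocal overlap (26.2% against 3.31%). These settings lowered both kept shares. The identity of a single protein moved the share less. The kept share was 14.1% for CTCF alone (10.7 to 18.3, 327 regions), 12.5% for MBD3 alone, 10.5% for TET1 alone and 12.9% for TET2 alone, and the interval for CTCF overlapped those of the other 3.

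TET3 regions with both CTCF and MBD3 were kept more often than those with either without the other, but most of them also held TET1 and TET2. Those with both were kept at 43.3% (41.8 to 44.9), those with CTCF but not MBD3 at 22.6% (20.4 to 24.9), those with MBD3 but not CTCF at 23.9% (23.1 to 24.7) and those with neither at 9.33% (8.90 to 9.78). The shares for CTCF without MBD3 and MBD3 without CTCF had overlapping intervals. Of the 4069 regions with both, 2869 had all 4 antibodies. The 321 with CTCF and MBD3 but neither TET1 nor TET2 were kept at 19.9% (15.9 to 24.7). Without TET1 and TET2, CTCF alone gave 14.1% (10.7 to 18.3) and MBD3 alone 12.5% (11.2 to 13.8). The interval for both together overlapped that of CTCF alone and lay above that of MBD3 alone. Regions with MBD3, TET1 and TET2 but no CTCF were kept at 31.9%, and regions with TET1 and TET2 alone at 19.4%.

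In BPK25 cells the proteins parted at the kept regions. CTCF was called at 32.1% of kept regions in BPK25 and 33.0% in DMSO, with overlapping intervals (30.9 to 33.2 and 31.8 to 34.2). Its lists held 14500 against 20675 regions. TET1 was at 44.9% in BPK25 against 70.9% in DMSO, although the BPK25 list of TET1 was the longer, with 84203 against 45019 regions. MBD3 was at 10.6% against 70.1% and TET2 at 7.20% against 70.0%, with lists of 15456 against 46132 and 13324 against 36633 regions. The CTCF list thus shortened less than those of MBD3 and TET2, and the part of list length in these shares was not tested. At lost regions all 4 were called less often in BPK25, with CTCF at 6.96%, MBD3 at 3.47%, TET1 at 28.3% and TET2 at 4.11%. A peak of at least 1 of the 4 antibodies in BPK25 was found at 62.0% of kept and 34.8% of lost regions.

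The CTCF shares were alike at kept regions, but the sites were in part different ones. Of the 2056 kept TET3 regions with CTCF in DMSO, 934 still had CTCF in BPK25, or 45.4% (43.3 to 47.6). A further 1065 kept regions had CTCF in BPK25 only. Where TET3 was lost, 20.3% of the CTCF peaks remained (19 to 21.7). The other antibodies gave smaller gaps in percentage points between kept and lost TET3 regions. Still called were 53.9% and 42.2% of TET1 peaks, 12.9% and 5.52% of MBD3 peaks and 8.97% and 6.81% of TET2 peaks. As a ratio, the MBD3 shares differed no less than the CTCF shares, while the TET1 and TET2 shares differed less.

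TET3 retention varied more with CTCF in treated cells than with CTCF in control cells. It was 51.6% with and 14.5% without a CTCF peak in BPK25, and 38.3% with and 15.0% without one in DMSO. In percentage points MBD3 went the same way, with 41.5% and 17.7% for its BPK25 peak and 29.2% and 10.3% for its DMSO peak. TET1 (26.9% and 15.1% in BPK25, 28.0% and 10.4% in DMSO) and TET2 (28.9% and 18.3%, 29.1% and 10.3%) went the other way. TET3 regions with CTCF in both treatments were kept at 58.1% (55.7 to 60.5). Those with CTCF in BPK25 only were kept at 47.0% (45.0 to 49.1), above the 29.8% (28.4 to 31.3) of those with CTCF in DMSO only, and those without CTCF in either at 12.2%. The difference between BPK25 only and DMSO only, 17.2 points, was 6.18 with a −log10 q of at least 5 (12.3% against 6.16%). With a fold enrichment of at least 4 it was 10.9 (18.8% against 7.82%). Both cuts lowered both kept shares, so the smaller differences in points do not show a smaller ratio. For the other antibodies the order of the 2 middle groups was the opposite. With a peak in BPK25 only against DMSO only, TET3 was kept at 21.9% against 27.5% for MBD3, at 12.8% against 23.7% for TET1 and at 13.1% against 28.7% for TET2. The TET3 and CTCF lists of BPK25 cells come from the same treatment and day, so a shared background can move both, and its part was not tested.

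**Figure D3:**
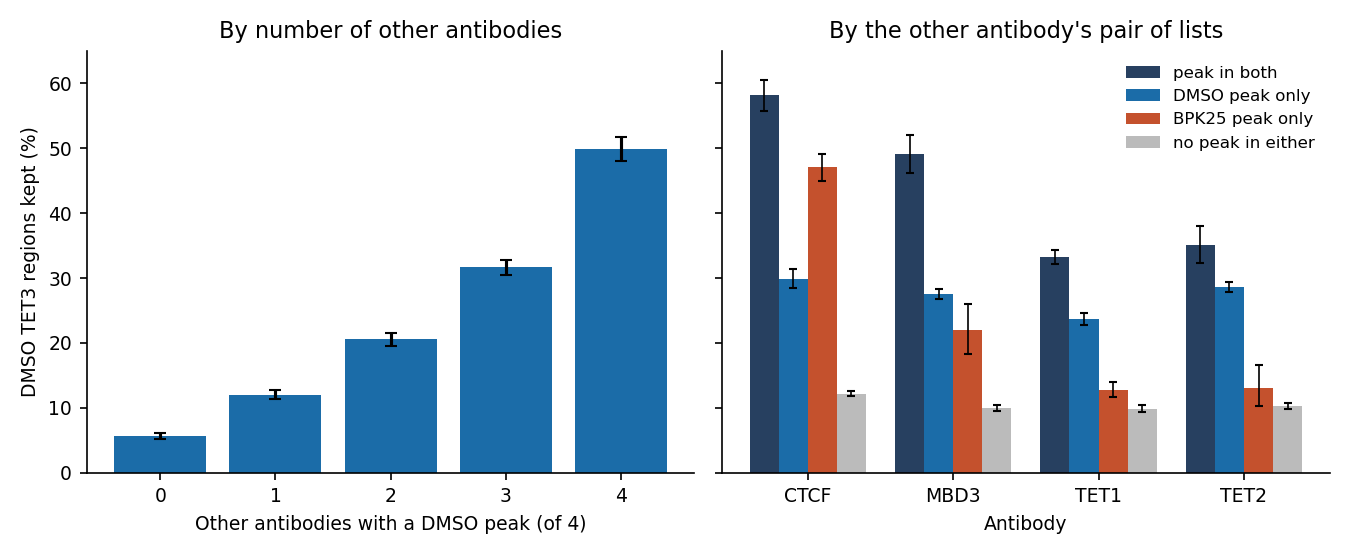
Share of DMSO TET3 regions kept in BPK25 (y axis, %), by the number of other antibodies with a DMSO peak there (left) and by whether CTCF, MBD3, TET1 or TET2 had its own peak in both treatments, 1 of them or neither (right), with Wilson 95% intervals. The left bars climb from 5.72% to 49.9%, and for CTCF the BPK25-only bar (47.0%) is above the DMSO-only bar (29.8%).

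Gained regions held fewer proteins than shared ones. Within the BPK25 lists, CTCF was called at 30.9% of shared and 12.7% of gained regions (difference 18.2 points, 16.8 to 19.6), TET1 at 42.5% and 14.7% (27.8 points, 26.3 to 29.3), MBD3 at 10.0% and 3.58% (6.44 points, 5.58 to 7.32) and TET2 at 6.82% and 1.56% (5.26 points, 4.58 to 5.97). The lead of TET1 rested on its list of 84203 regions. With each list cut to its 10000 strongest regions, the difference was 7.70 points for TET1 (9.42% against 1.71%), below the 11.3 of CTCF, and it was 4.08 for TET2 and 3.55 for MBD3. In each of the 10 bins of the BPK25 list by −log10 q the difference had the same sign, for each of the 4 antibodies. No other antibody was called in BPK25 at 74.0% of gained and 39.8% of shared regions.

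Many gained regions were places of other proteins in cells that had not been treated. MBD3 was called at 29.0% of gained regions in DMSO and 39.6% in WT cells, against 3.58% in BPK25, and TET2 at 24.5% in DMSO against 1.56%. CTCF was at 7.85% in DMSO, 10.6% in WT (9.89 to 11.4) and 12.7% in BPK25. Over all BPK25 TET3 regions the DMSO peaks were more frequent, with MBD3 at 48.3%, TET2 at 46.2% and CTCF at 19.2%. A DMSO or WT peak of another antibody with none in BPK25 was found at 39.7% of gained regions. This was not particular to them, with 35.8% of shared, 34.3% of kept and 42.7% of lost regions. The reverse, a BPK25 peak with none in DMSO or WT, was found at 4.32% of gained, 1.26% of shared, 0.995% of kept and 4.75% of lost regions. No peak of another antibody on day 4 was present at 34.2% of gained and 3.97% of shared regions. Gained regions also lay near TET3 regions of control cells, with 18.2% within 500 bp of one (17.2 to 19.1), against 2.58% when they were moved by 100 kb. For lost regions 7.07% lay within 500 bp of a BPK25 region, against 1.57% when moved. Counting such neighbours as the same region brought the kept share to 24.5% and the shared share to 58.4%.

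The nearest CTCF peak in DMSO was a median of 3.13 kb from kept and 15.0 kb from lost regions, but these medians include the regions that touch a CTCF peak. Among the regions that touch none, the medians were 20.7 kb for kept and 20.9 kb for lost, so the median distance hardly differed. In the BPK25 lists it was 29.3 kb from shared and 54.5 kb from gained regions that touch no CTCF peak. CTCF peaks within 1 kb that did not touch the region were found at 10.6% to 11.4% of the 4 classes. These shares are over all regions of a class, including those that touch a CTCF peak. Regions touching none were 4175 of 6232 kept and 23575 of 26889 lost regions. Counted over these alone, the share within 1 kb was higher at kept than at lost regions. The same held for shared regions (4335 of 6277 touching none) against gained ones (5654 of 6480).

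TET3 on day 9 of the control cells was called more often at kept than at lost regions, as were the other antibodies. A day 9 DMSO peak of TET3 was present at 55.8% of kept (54.6 to 57.1), 26.8% of lost and 19.8% of gained day 4 regions, against 0.880% to 2.58% for the same regions moved by 10 kb. Day 4 DMSO regions with TET3 on day 9 were kept in BPK25 at 32.6%, and those without at 12.3%. The day 9 DMSO peaks of TET1 were at 51.1% of kept and 24.4% of lost regions, and those of TET2 at 31.4% and 14.0%. For CTCF the shares were 20.6% and 7.45%, and for MBD3 10.3% and 4.66%. The day 9 peaks were not examined within bins of strength or width. The gained regions included 1284 with a TET3 peak in DMSO cells on day 9. On day 0 the order was different, with a DMSO peak at 3.06% of kept, 5.47% of lost and 0.586% of gained regions. The moved regions gave 2.15%, 2.47% and 1.03%, so day 0 peaks were above that level at kept and lost but not at gained regions. The day 9 BPK25 list of TET3 held 321 regions, and it met 120 kept, 93 lost and 14 gained regions, or 1.93%, 0.346% and 0.216%. Compared in the same way, 82% of DMSO TET3 regions on day 0 and 99.3% on day 9 had no BPK25 region, and 54.4% and 43.6% of BPK25 regions on those days had no DMSO region.

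**Figure D4:**
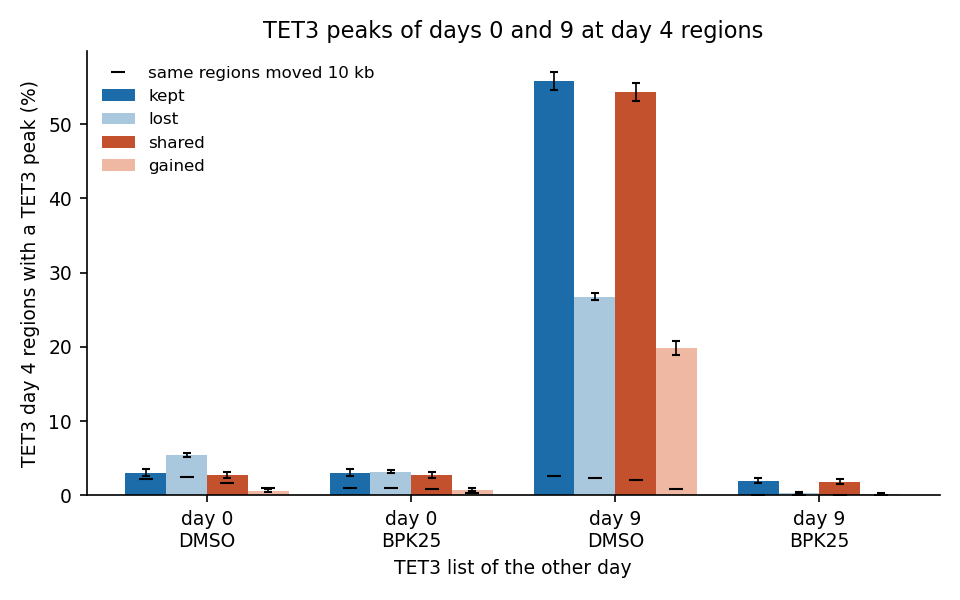
Share of day 4 TET3 regions (y axis, %) with a TET3 peak in the DMSO or BPK25 list of day 0 or day 9 (x axis), for kept, lost, shared and gained regions, with Wilson 95% intervals and black dashes for the same regions moved by 10 kb. The day 9 DMSO list meets 55.8% of kept and 26.8% of lost regions, and each bar of the day 0 lists is below 6%.

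TET3 regions were unevenly spread over the chromosomes. Chromosome 1 held 20.7% of the DMSO and 18.9% of the BPK25 regions, the highest shares among the 12 lists of day 4, where the lowest was 13.2%. On day 0 the 12 lists had 8.40% to 13.2% there, and on day 9 13.8% to 25.2%. Chromosome 1 also had the highest median background in both lists, 2.23 fragments in DMSO against 1.66 on the other autosomes and X, and 4.32 against 3.01 in BPK25. In 10 Mb windows along chromosome 1 the DMSO median was between 1.91 and 2.71, above the other chromosomes in each window. The BPK25 median was between 2.67 and 5.16, and the window from 80 to 90 Mb, at 2.67, was below the 3.01 of the other chromosomes. The kept share was 22% on chromosome 1 and 18.0% on the others, and the shared share was 64.0% and 45.7%. What raised the background there was not tested. On the other autosomes and X, CTCF in DMSO was at 29.4% of kept and 11.6% of lost regions.

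Among the other chromosomes, 19 had the highest kept share, 24.1% (22.1 to 26.3), and 22 the lowest, 12.1% (10.3 to 14.3). The shared share of chromosome 19 was 64.0% (60.1 to 67.7). Chromosome 18 had the lowest shared share, 34.3% (28.6 to 40.5). Chromosome X held 306 DMSO and 111 BPK25 regions, 0.924% and 0.870% of the lists.

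**Figure D5:**
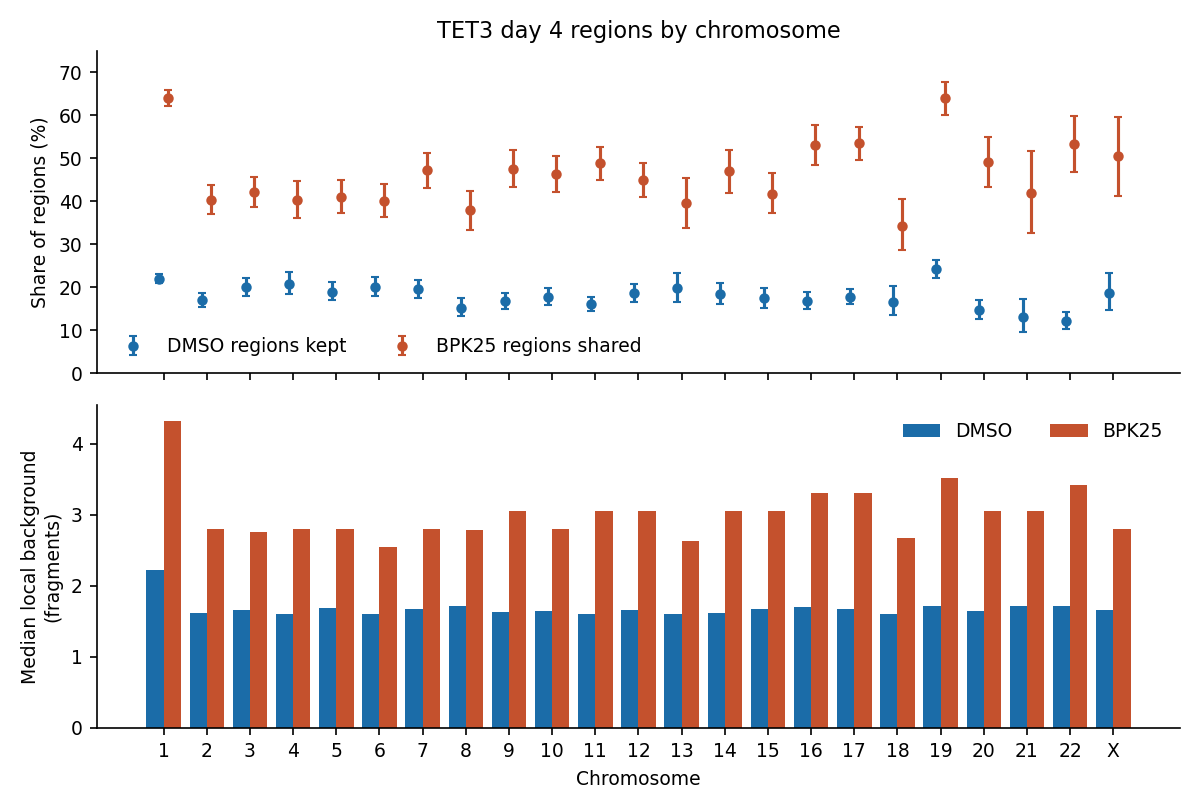
Top, share of DMSO regions kept and of BPK25 regions shared on each chromosome (y axis, %) with Wilson 95% intervals. Bottom, median local background at TET3 summits in fragments, with chromosome 1 the highest in both lists (2.23 in DMSO and 4.32 in BPK25).

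The strongest kept and lost regions by −log10 q were mostly intervals called in at least 18 of the 36 lists. Peaks in at least 18 of the 36 lists covered 5.78% of kept, 1.26% of lost and 0.370% of gained regions. This count includes the 2 TET3 lists compared here, and kept regions are in both by definition. At the other end, no peak in any of the other 34 lists was found at 2.50% of kept, 16.1% of lost and 28.3% of gained regions. Of the 6 strongest kept regions 5 were in at least 18 other lists. The first, chr1:121484365-121485423 (build hg19), was 1059 bp wide with a −log10 q of 4004 in DMSO, but its fold enrichment was only 2.82, and it was called in all 34 other lists. The next, chr19:27731925-27732371, had a fold enrichment of 3.80 in DMSO and 3.84 in BPK25 and was in 33 other lists. Without the intervals called in at least 18 lists the kept share was 18.1%.

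The strongest lost regions had the same character. The interval chr4:191043761-191044266, with a fold enrichment of 11.7 and a −log10 q of 54.9, was called in 32 other lists, among them all 4 other antibodies in BPK25 on day 4. Of the 6 strongest lost regions 5 were in at least 18 other lists, and the remaining one in 17. A clearer loss was chr2:178077126-178077335, 210 bp wide with a fold enrichment of 11.5 and a −log10 q of 21.9. It was among the 3 strongest of 3330 lost regions on chromosomes 1 to 22 and X that had TET1 and TET2 in DMSO and neither in BPK25. MBD3 was also called there in DMSO and WT, CTCF in WT and in BPK25, and TET3 again in DMSO on day 9. The second of these 3, chr1:149297754-149297933, had a fold enrichment of 6.87 and CTCF, MBD3, TET1 and TET2 in DMSO, and none of the 4 in BPK25.

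Of the 6 strongest gained regions 2 were in at least 18 other lists. Of the same 6, 5 lay on chromosome 10 between 42388294 and 42534798. Their fold enrichments in BPK25 ranged from 1.66 to 3.71. The kept region chr10:42529283-42529637 lay near chr10:42532442-42532613 and chr10:42534590-42534798, and farther from the other gained regions of this span. The interval chr10:42534590-42534798 had a −log10 q of 442 and CTCF in BPK25, no other antibody on day 4, and CTCF and MBD3 in all 3 conditions of day 0. The remaining one, chr4:68265519-68265685, had a fold enrichment of 2.22 and no other antibody on day 4.

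A further set was chosen after its values were seen, namely the 3 regions of each class with the highest fold enrichment outside the intervals called in at least 18 lists. The kept region chr19:7894478-7895112 was 635 bp wide with a fold enrichment of 14.4 in DMSO, and its BPK25 counterpart, 455 bp wide, had 8.49. CTCF, MBD3, TET1 and TET2 were called there in DMSO and none of them in BPK25, so TET3 was the antibody that remained. The kept region chr1:172501972-172503198, with 11.8 in DMSO and 3.43 in BPK25, had all 4 in DMSO, and CTCF, MBD3 and TET2 in BPK25. The kept region chr17:26368509-26368810, with 11.1 and 4.29, had MBD3, TET1 and TET2 in DMSO, and CTCF, MBD3 and TET1 in BPK25. All 3 had TET3 on day 9 in DMSO.

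Of the lost regions, chr14:64805486-64805968 had a fold enrichment of 10.7 with MBD3, TET1 and TET2 in DMSO and none of the other antibodies in BPK25. The lost region chr15:102521210-102521399, also at 10.7, had MBD3 and TET1 in DMSO and CTCF in BPK25. The gained regions of highest fold enrichment were lower, chr1:116106938-116107118 at 7.62 with no other antibody on day 4, chr1:61543626-61543884 at 7.29 with TET2 in DMSO, and chr6:144537509-144537765 at 7.28 with CTCF in BPK25 and MBD3 in DMSO and WT. Genes, exons and sequence at these positions were not analysed here.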

How the data were processed

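TET3 was measured by ChIP-seq in H9 cells on day 4, in 3 DMSO and 3 BPK25 replicates, and sample titles gave each sample's group. Per the labels, each peak list was called on replicates 1 to 3 together against a control, but which input was that control is not given in the sources used here. Per the submitters' processing notes, the tools were MACS2 2.1.2, Bowtie2 2.3.4, bedtools 2.25.0, FastQC 0.11.7 and SAMtools 1.9, listed with no role, and the build was hg19. The deposited columns hold, per summit, the authors' enrichment as a linear ratio of fold over local background, the −log10 of the p-value and that of the q-value, and the summit position. These values were used to describe, rank or filter peaks within a list.

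The 36387 DMSO and 13738 BPK25 rows, 1 per summit, were collapsed to 1 region per interval, keeping the highest −log10 q. Overlap was at least 1 bp. The same regions moved by 10 kb, or 100 kb for distances between TET3 regions, gave the background level. Shares have Wilson 95% intervals and differences of shares intervals built from these. No test between treatments was possible with 1 list per group. The lists state no depth. Pileup and local background were solved, with Poisson tail probabilities, for peaks whose −log10 p was at most 12 (whole pileup within 0.01 in −log10 p), and the lowest background was the value at the lowest 0.5% of regions. Recovery was tested on simulated data, and overlaps were checked against bedtools 2.31.1, which also found 6232 kept regions.

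Named regions on chromosomes 1 to 22 and X were the 6 kept with the best lower rank in their 2 lists, the 6 lost and 6 gained of highest −log10 q, 3 lost with TET1 and TET2 in DMSO but not BPK25, and 3 gained without another antibody in DMSO. The text gives some of these. The regions, lists and alternatives were chosen with earlier results of these data known. Alternatives were stricter −log10 q or fold enrichment, other overlap rules, lists of equal length, shorter lists of the other antibodies, and leaving out recurrent regions or minor sequences. Summit windows, leaving out chromosome 1, and the alternatives for the kept share by other antibodies and for day 9 peaks were added after the data were seen. No gene was assigned, since an hg19 annotation was not used here. Computation was in Python 3.11.15 with pandas 2.3.3, numpy 2.4.6 and scipy 1.17.1, and plots were made with matplotlib 3.10.9.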

Additional observations from a re-analysis of the deposited data

How the results depend on the processing

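The alternatives were run for the number of regions, the kept and shared shares, the 8 peak differences, the 2 width ratios and 3 differences added after the data were seen, and they were not run for the other results. The kept and shared shares have no direction to change, and none of the other results changed direction. Of all 149 values, 105 left the 95% interval of the main value, which is narrow because it covers counting error only. The shared share, 49.2% in the main setting, was 58.4% within 500 bp, so whether most BPK25 regions were gained depended on the setting. No paired analysis was possible because each list pools its 3 replicates, and leaving out a replicate was not possible for the same reason. Values are given below as the kept share, the shared share, the difference in percentage points between kept and lost (DMSO lists) or shared and gained regions (BPK25 lists), and the ratio of median widths. The added differences, in percentage points, are those in the kept share between all 4 other antibodies and none, in the kept share between CTCF in BPK25 only and in DMSO only, and in TET3 peaks of day 9 DMSO cells between kept and lost regions.

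The number of regions in BPK25 against DMSO went to -2.42 on the log2 scale with a −log10 q of at least 5, to -2.40 with a fold enrichment of at least 4 and to -1.34 without chromosome 1. With −log10 q of at least 5, the kept share was 7.31% and the shared share 39.4%, the differences in DMSO lists were 27.9 for CTCF, 22.1 for MBD3, 18.0 for TET1 and 22.4 for TET2, those in BPK25 lists 23.8, 16.2, 29.6 and 12.3, and the width ratio of shared over gained regions 1.30. With fold enrichment of at least 4, the kept share was 7.60% and the shared share 40.0%, the DMSO differences 15.1, 18.8, 17.9 and 20.5, those in BPK25 20.0 for CTCF, 7.99 for MBD3 and 25.5 for TET1, and the width ratios 1.29 and 1.32.

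With reciprocal overlap of at least 50%, the kept share was 10.6% and the shared share 27.6%, the DMSO differences 17.1, 27.3, 25 and 26.4, those in BPK25 14.8, 5.38, 20.8 and 4.50, and the width ratio of kept over lost 1.26. Within 500 bp, the shares were 24.5% and 58.4%, the DMSO differences 17.6, 25.1, 24.3 and 26.5, those in BPK25 16.7 for CTCF, 25.1 for TET1 and 4.36 for TET2, and the width ratios 1.32 and 1.19. With lists of equal length, the shares were 28.7% and 29.4%, the DMSO differences 23.6 for MBD3, 22.5 for TET1 and 24.1 for TET2, that of TET2 in BPK25 6.01, and the width ratio of kept over lost 1.46.

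The added differences, in that order, were 14.9, 6.18 and 23.7 with −log10 q of at least 5, 12.0, 10.9 and 19.4 with fold enrichment of at least 4, and 22.9, 12.3 and 25.4 with reciprocal overlap. The first was 41.7 without intervals called in at least 18 lists, 53.4 with the other lists cut to 10000 regions, 34.8 around summits and 41.0 without chromosome 1. The last was 25.7 within 500 bp, 25 with lists of equal length, 27.2 without recurrent intervals, 20.9 with the day 9 list cut to 10000 regions, 25.9 around summits and 27.4 without chromosome 1.

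Without intervals called in at least 18 lists, the shares were 18.1% and 47.7%, the CTCF difference in DMSO 18.6, and those in BPK25 16.2, 5.02, 25.5 and 3.47. With the other antibody's list cut to 10000 regions, the DMSO differences were 7.25, 12.7, 20.3 and 23.4 and those in BPK25 11.3, 3.55, 7.70 and 4.08. Of the settings added after the data were seen, 200 bp around each summit gave shares of 14.7% and 38.2%, DMSO differences of 17.1, 28.3, 27.2 and 27.8, and BPK25 differences of 14.6 for CTCF, 4.93 for MBD3 and 23.8 for TET1. Without chromosome 1 the shares were 18.0% and 45.7%, the DMSO differences 17.9, 28.9, 27.4 and 28.7, that of CTCF in BPK25 16.1, and the width ratio of kept over lost 1.37. The alternatives with shorter lists leave fewer regions to meet, by construction. The depth of the lists is unknown, so a lost region is one not called, which does not show that TET3 was absent.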
